A study of Mus musculus with 20 samples.

Results

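The Nodal and activin pathway was followed through 10 genes, Nodal, Gdf3, Inhbb, Tdgf1 (also called Cripto), Acvr1b, Acvr2b, Smad2, Foxh1, Lefty1 and Lefty2, in 20 single cells of the inner cell mass. They came from mouse embryos (C57BL/6) at day 3.5 of development. The genes were chosen by name, as the ligands, co-receptor, receptors, signal transducers and antagonists of the pathway, and the array reads them with 19 of its 45101 probe sets. Each is represented by its brightest probe set, 10 of the 18193 genes named on the array. Per the series design, the blastocysts were dissociated with trypsin, 55 cells were picked at random, and PCR on the amplified cDNA left 50 that carried Oct4 (Pou5f1) and lacked Cdx2, a trophectoderm gene. Each array held the amplified cDNA of 1 cell, and all 20 cells formed a single untreated group. The labels tie no cell to an embryo, so the cells are not replicates of a condition and no p-value was computed. Errors are standard deviations between cells, and the value of a single cell has no error of its own.

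Nodal and the activins are secreted ligands of the TGF-beta superfamily. They bind a type II receptor (Acvr2a or Acvr2b), which activates a type I receptor (Acvr1b or Acvr1c). The type I receptor phosphorylates Smad2 and Smad3, which enter the nucleus with Smad4 and act on target genes with partners such as Foxh1. Nodal and Gdf3 also need an EGF-CFC co-receptor such as Tdgf1, while activins do not. Lefty1 and Lefty2 are secreted antagonists that are themselves induced by the pathway, which makes them its usual readout in the early embryo. In the mouse the pathway is known for its part in epiblast maintenance and in the patterning of the embryo around gastrulation.

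Levels are given as log2(intensity + 8.75) after quantile normalization, where 3.29 is the lowest value possible. A gene was called detected in a cell when it exceeded a floor, the 95th percentile of 140 probe sets of olfactory and vomeronasal receptor genes and of genes of unrelated tissues on the same array. The floors lay between 6.42 and 7.02. Probe sets differ in how brightly they report, so levels are compared between cells and not between genes. Pou5f1 was detected in 20 of 20 cells. Although the cells were kept as lacking Cdx2 by PCR, its brightest probe set read between 6.81 and 8.26 and was called detected in 19 cells. That signal lay within 1 log2 unit of the floor in 16 of the 20 cells. Of 12 trophectoderm markers, Elf5, Gata3, Krt7, Krt19 and Atp12a were called in 0 cells, Krt18 in 3, Lgals3 in 5, Krt8 in 10, Tfap2c and Tead4 in 13 each, and Hand1 in all 20 (13.58 to 13.78). The Hand1 signal was nearly flat over the cells (SD 0.08), with 10 cells at its highest value. Whether that probe set reads Hand1 in these cells was not tested. Between the clusters described next, 2 of the 7 trophectoderm markers detected in at least 3 cells had a mean higher by at least 1 in epiblast-like cells (Tfap2c by 2.21 and Lgals3 by 1.45) and 2 in primitive endoderm-like cells (Krt8 and Tead4), of which Tfap2c alone passed 1 with values below the floor set to it (1.37). The part of these markers in the results was not tested. The trophectoderm score, the mean of the centred markers, was 0.09 ± 0.67 in epiblast-like cells and -0.09 ± 0.62 in primitive endoderm-like cells (SD, n = 10 each). The array of cell 19 had a median deposited intensity of 14.97, against 25.56 to 30.14 on the others.

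The cells were set side by side in 2 clusters of 10, found on 500 variable genes that held none of the pathway genes and none of the lineage markers. Among the 10 genes leading each cluster, 3 were epiblast markers (Fgf4, Klf2 and Nanog) on one side and 7 were primitive endoderm markers (Sox17, Pdgfra, Gata6, Cubn, Lama1, Fgfr2 and Gata4) on the other, and the clusters are called epiblast-like and primitive endoderm-like. Of all 9 epiblast markers, 7 had a mean higher by at least 1 in the epiblast-like cells, 0 in the other cluster, and 2 differed by less. Of 18 primitive endoderm markers, Dab2, Ttr and Afp were detected in 0 cells and Amn in 1. Of the 14 detected in at least 3 cells, 11 were higher by at least 1 in the primitive endoderm-like cells. Hnf4a was higher in the epiblast-like cells (by 2.44, or 1.03 with values below the floor set to it), and Sox7 and Apoe differed by 0.03 and 0.06. The epiblast-like cells (1, 2, 7, 9, 12, 13, 14, 16, 18 and 19) were the same 10 cells in which Fgf4 was detected. Cells 6 and 16 changed sides under other settings. The form of the variance trend that picks the variable genes, a spline, was chosen after a trend taken from bins had put cell 16 with the primitive endoderm-like cells, although its Fgf4 was detected and its Gata4 was not. Values with bins and without cell 16 are given under the processing alternatives. The clusters come from the same cells and are not groups of the study, so differences between them are descriptions. Detected genes numbered 7720 ± 253 per cell in epiblast-like cells and 7257 ± 393 in primitive endoderm-like cells (SD, n = 10 each), whose floors were higher (6.83 ± 0.19, against 6.63 ± 0.13 in epiblast-like cells). The profiles least like the rest were those of cells 4, 8, 17 and 20, all primitive endoderm-like, whose mean r with the others over genes was 0.605 to 0.645. Cell 9, epiblast-like, came next at 0.648, so no gap sets cell 8 apart. The part of the depth difference in the counts below was not tested.

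Of the 10 pathway genes, 3 were detected in every cell (Gdf3, Tdgf1 and Foxh1), against 17.6% of all named genes, or 31.3% of those detected in at least 3 cells. Smad2 was detected in 18 cells, Acvr2b in 16, and Inhbb and Acvr1b in 10 each. Lefty1 was detected in 2 cells, and Nodal and Lefty2 in 0, as were 34.7% of all named genes. Thus 7 of the 10 were detected in at least 3 cells (56.3% of all named genes). Nodal itself was not well above background. Each cell held between 5 and 7 of the 10 genes detected, 5.7 ± 0.48 in epiblast-like cells and 5.9 ± 0.74 in primitive endoderm-like cells (SD, n = 10 each).

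**Figure D1:**
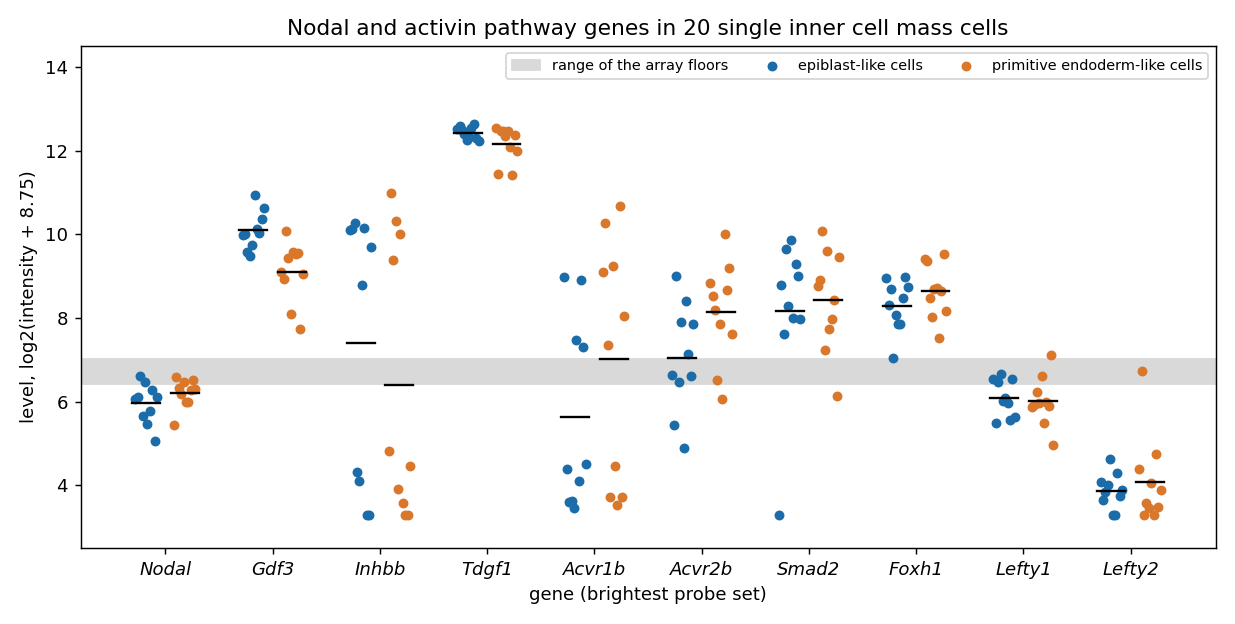
Level of each pathway gene, log2(intensity + 8.75), in every cell, with epiblast-like cells on the left of each pair and primitive endoderm-like cells on the right. Points are cells, bars are cluster means and the grey band is the range of the array floors (6.42 to 7.02). Tdgf1 and Gdf3 stay above the band in all cells, Inhbb and Acvr1b have no cell between 4.82 and 8.79 and between 4.51 and 7.31, and Nodal and Lefty2 do not rise above the floor of their own array.

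Among the ligands, Nodal, which gives the pathway its name, was at background in both clusters. Across cells, the lowest, median and highest levels were 5.05, 6.09 and 6.61 in epiblast-like cells and 5.43, 6.30 and 6.59 in primitive endoderm-like cells. The nearest it came to the floor of an array was 0.01 below, and 16 of the 20 values lay within 1 log2 unit of the floor. The second Nodal probe set was detected in 0 cells too, and the probe sets did not vary together over the cells (r = -0.06, n = 20). With the floor at the 90th percentile of the background probe sets, Nodal would count as above it in 11 cells, so the count of cells with Nodal depends on where the floor is set.

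Gdf3, a Nodal-like ligand of the TGF-beta superfamily, was present in every cell and had the higher level in epiblast-like cells. The lowest, median and highest Gdf3 levels were 9.49, 10.02 and 10.94 in epiblast-like cells and 7.75, 9.27 and 10.08 in primitive endoderm-like cells. The ranges overlapped, but 6 of the 10 primitive endoderm-like cells lay under the lowest epiblast-like cell. The means were 10.09 ± 0.45 in epiblast-like cells and 9.11 ± 0.71 in primitive endoderm-like cells (SD, n = 10 each), a difference of 0.98 or 1.98-fold, larger than either SD. Of all 10245 genes detected in at least 3 cells, 88.7% had a lower difference. The second Gdf3 probe set, detected in 16 cells, read 8.76 ± 1.03 in epiblast-like cells and 7.85 ± 1.45 in primitive endoderm-like cells, a difference of 0.91 that was within the spread between cells. The probe sets shared r = 0.33 over the cells. The lowest Gdf3 levels, 7.75 and 8.10, were in cells 17 and 8, whose mean r with the other cells was 0.633 and 0.645 (0.648 in cell 9, the next lowest). Without cells 4, 8, 17 and 20, when cell 16 also changed cluster, the Gdf3 difference was 0.49. Under the 11 other settings tried it ranged from 0.89 to 0.99.

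Inhbb, which encodes the beta B subunit of activin and inhibin, was either bright or near the bottom of the scale. It was detected in cells 1, 2, 7, 13, 14 and 19 of the epiblast-like cluster and in cells 4, 5, 6 and 10 of the primitive endoderm-like cluster. Its lowest, median and highest levels were 3.29, 9.24 and 10.26 in epiblast-like cells and 3.29, 4.64 and 10.98 in primitive endoderm-like cells. Both clusters thus spanned the whole range, with no cell between 4.82 and 8.79. The gap was 3.97 wide. Of the 10245 genes, 6.72% had a gap of at least 3, and of those within 0.5 log2 units of the mean level of Inhbb 2.58% did (the limit of 3 was chosen after the values were seen). The SD over the 20 cells, 3.20, was larger than that of 99.8% of the genes, whatever their level. The cluster means, 7.41 ± 3.20 in epiblast-like cells and 6.41 ± 3.30 in primitive endoderm-like cells (SD, n = 10 each), differed by 1.01, within the spread between cells, and by 0.37 once values below the floor were set to the floor (called "raised to the floor" from here on). Raising carries the higher floors of the primitive endoderm-like cells into a difference. A gene detected in 0 cells, such as Nodal, then differed by -0.20. The other Inhbb probe set was detected in 0 cells (highest 6.17), so the on and off pattern is that of a single probe set.

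Tdgf1, the EGF-CFC co-receptor through which Nodal and Gdf3 reach the activin receptors, was present and nearly even in all cells. Its lowest, median and highest levels were 12.23, 12.44 and 12.63 in epiblast-like cells and 11.41, 12.35 and 12.54 in primitive endoderm-like cells. The epiblast-like mean of 12.43 ± 0.14 and the primitive endoderm-like mean of 12.15 ± 0.43 (SD, n = 10 each) differed by 0.27, within the larger SD, and by 0.11 without cells 4, 8, 17 and 20. The SD over all cells, 0.34, was larger than that of only 14.4% of the genes, whatever their level. Tdgf1 was bright (mean 12.29) and is read by 1 probe set, and its SD was not compared with genes of like level. Most of that spread lay in cells 4 and 15, at 11.44 and 11.41, while the next lowest cell was at 11.98. Cells 4 and 15 were also the only cells with Nanog, an epiblast transcription factor, not detected (3.29 and 3.47), and they had the highest Acvr1b levels of all cells (10.27 and 10.68). Over the 20 cells the level of Tdgf1 had r = 0.75 with Nanog (Spearman's rho = 0.33), and without cells 4 and 15 r was 0.24, so the relation rests on those cells. The points share the same arrays and their normalization.

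The promoters of 3 of these genes are shown because the genes stood apart in how many cells carried them, 20 for Tdgf1, 10 for Inhbb and 0 for Nodal. The RefSeq table (GRCm38.p6) held promoters of 5 of the 10 genes, those 3 with Acvr1b and Acvr2b. Each sequence is the 250 bases before the start of the gene, 5′ to 3′ on the strand of the gene, with matches to the searched motifs in capitals. Motifs were chosen after the levels were seen and searched on both strands. They were TGTNNATT for FOXH1, GTCTAGAC for SMAD proteins with the shorter SMAD box CAGACA, and the promoter elements TATAAA, called the TATA box, GGGCGG, called the GC box, and the CCAAT box.
Tdgf1, chr9:110946159-110946408, minus strand: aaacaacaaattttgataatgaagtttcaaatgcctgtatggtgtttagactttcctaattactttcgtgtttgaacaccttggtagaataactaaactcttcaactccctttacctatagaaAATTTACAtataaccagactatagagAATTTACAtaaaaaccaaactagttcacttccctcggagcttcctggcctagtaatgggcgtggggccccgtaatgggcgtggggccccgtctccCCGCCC
Inhbb, chr1:119422249-119422498, minus strand: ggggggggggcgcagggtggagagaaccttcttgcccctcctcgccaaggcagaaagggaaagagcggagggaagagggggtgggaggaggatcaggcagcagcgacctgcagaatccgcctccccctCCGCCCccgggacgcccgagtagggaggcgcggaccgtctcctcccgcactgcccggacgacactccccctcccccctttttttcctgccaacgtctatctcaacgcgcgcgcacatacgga
Nodal, chr10:61417722-61417971, plus strand: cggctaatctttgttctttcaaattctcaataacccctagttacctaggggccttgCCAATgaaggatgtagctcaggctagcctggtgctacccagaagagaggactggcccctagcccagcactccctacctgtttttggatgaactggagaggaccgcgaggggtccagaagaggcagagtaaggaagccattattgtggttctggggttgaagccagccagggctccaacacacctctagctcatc
The Tdgf1 window held 2 matches to the FOXH1 letters, both on the other strand, 127 to 120 and 101 to 94 bases before the start. Of 27025 promoters in the table, 11.1% held at least 1 such match and 1.14% at least 2. The Tdgf1 window also ended in a GC box, the Inhbb window held 1 GC box and the Nodal window 1 CCAAT (32.9% and 34.5% of promoters held at least 1 of these). No window held GTCTAGAC, CAGACA or TATAAA. Shorter parts of the SMAD letters were not searched, and one of them, CAGAC, occurs in the Tdgf1 window. CpG pairs numbered 7 in the Tdgf1 window, 21 in the Inhbb window and 3 in the Nodal window, against a median of 6 over the table. The windows of Acvr1b and Acvr2b held 42 and 24. A match is a description of the letters, not a site of binding.

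Of the receptors, Acvr1b (ALK4), the type I receptor for Nodal and activin, was detected in 10 cells, 4 epiblast-like (1, 13, 16 and 18) and 6 primitive endoderm-like (3, 4, 5, 8, 15 and 20). Levels ran from a lowest, median and highest of 3.47, 4.45 and 8.98 in epiblast-like cells and 3.52, 7.70 and 10.68 in primitive endoderm-like cells. No cell lay between 4.51 and 7.31, a gap of 2.80, under the limit of 3. The means, 5.64 ± 2.26 in epiblast-like cells and 7.01 ± 2.88 in primitive endoderm-like cells (SD, n = 10 each), differed by -1.37, within the spread between cells, and by -0.91 with values raised to the floor. The other Acvr1b probe set was detected in 1 cell and did not follow the first (r = 0.09). Its mean was close behind, 6.17 against 6.33 for the set used here, and it became the brighter one with the pseudocount at the 10th percentile, without cells 4, 8, 17 and 20, and without cells 4 and 15. The call of Acvr1b in these cells therefore depends on the choice of probe set.

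Acvr2b, a type II receptor for activin, Nodal and Gdf3, was detected in 7 epiblast-like cells and in 9 of the primitive endoderm-like ones. In epiblast-like cells its lowest, median and highest levels were 4.89, 6.89 and 9.01. In primitive endoderm-like cells its lowest and median levels were 6.06 and 8.37, and its highest lay 3.12 above the floor of its array. The means of 7.04 ± 1.29 in epiblast-like cells and 8.15 ± 1.19 in primitive endoderm-like cells (SD, n = 10 each) differed by -1.11, less than the SD of the epiblast-like cells, and by -0.89 with values raised to the floor. In 9 cells the value was within 1 log2 unit of the floor, and with the floor at the 99th percentile of the background probe sets only 7 cells passed. The 2 other probe sets, detected in 11 and 6 cells, differed in the same direction (-0.47 and -0.32). They followed the first only weakly (r = 0.18 and 0.29). Their values lay within 1 log2 unit of the floor in 16 and 19 cells, so they are a weak check.

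Acvr2a, the other type II receptor, belongs to the wider list below and showed a larger difference in the same direction. It was detected in 4 epiblast-like cells and in 9 of the primitive endoderm-like ones. Its levels were 6.37 ± 2.01 in epiblast-like cells and 8.63 ± 1.44 in primitive endoderm-like cells (SD, n = 10 each), a difference of -2.26, or -1.30 with values raised to the floor. Acvr1c (ALK7), the alternative type I receptor, was detected in 0 cells. At least 1 type II receptor was detected in 17 cells, 7 epiblast-like and 10 of the other cluster, and both in 12 cells, 4 epiblast-like and 8 of the other cluster. In cell 6 the only type II receptor was Acvr2b, 0.07 above its floor. A type I and a type II activin receptor were detected together in 9 cells, 3 epiblast-like (1, 16 and 18) and 6 primitive endoderm-like (3, 4, 5, 8, 15 and 20). Cell 18 counts only through Acvr2b, 0.006 above its floor. Every pair rests on the Acvr1b probe set that the other Acvr1b probe set did not follow. Of the 10 cells with Inhbb, 3 also had a receptor pair (cells 1, 4 and 5), against 9 of all 20 cells. The calls of Inhbb and of Acvr1b come from 1 probe set each, so this overlap depends on both.

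**Figure D2:**
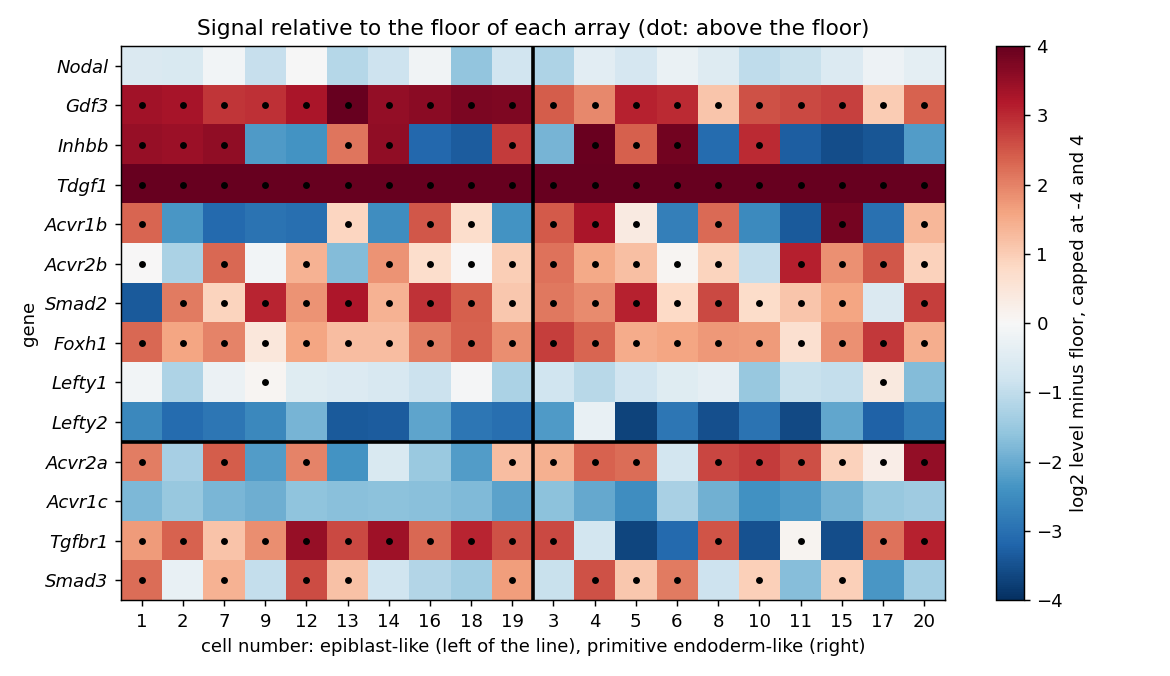
Log2 level minus the floor of the array for each pathway gene and for Acvr2a, Acvr1c, Tgfbr1 and Smad3 (rows) in each cell (columns), with epiblast-like cells left of the vertical line and primitive endoderm-like cells right of it. Dots mark values above the floor. Gdf3, Tdgf1 and Foxh1 carry dots in all 20 columns, Acvr2a in 4 epiblast-like cells and in 9 of the primitive endoderm-like ones and Tgfbr1 in 10 epiblast-like cells and 5 of the others.

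Inhbb and Acvr1b showed no shared pattern between cells. Both were detected in 4 cells (1, 4, 5 and 13), Inhbb without Acvr1b in 6, Acvr1b without Inhbb in 6 and neither in 4 (9, 11, 12 and 17). Their levels had r = -0.17 over the 20 cells.

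Smad2, the transducer phosphorylated by the activated type I receptor, was detected in 18 cells, 9 in each cluster. Its lowest, median and highest levels were 3.29, 8.54 and 9.85 in epiblast-like cells and 6.14, 8.60 and 10.08 in primitive endoderm-like cells. The clusters differed by -0.26 as read and by 0.02 with values raised to the floor, inside the SDs of 1.87 and 1.19. The exceptions were cell 1, at the lowest possible value by both Smad2 probe sets, and cell 17, at 6.14 by the first and 3.29 by the second. The second probe set was detected in 12 cells and had r = 0.52 with the first. Smad3, the close relative of Smad2, was detected in 10 cells, among them cell 1 (8.88) and not cell 17 (4.40). Smad2 or Smad3 was therefore detected in every cell but cell 17.

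Foxh1, the forkhead factor that carries Smad2 complexes to DNA, was detected in 20 of 20 cells. The Foxh1 levels had a lowest, median and highest of 7.04, 8.39 and 8.98 in epiblast-like cells and 7.53, 8.68 and 9.54 in primitive endoderm-like cells. The means of 8.30 ± 0.61 in epiblast-like cells and 8.66 ± 0.65 in primitive endoderm-like cells (SD, n = 10 each) differed by -0.36, less than either SD. The other Foxh1 probe sets were detected in 14 cells and 1 cell.

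The antagonists Lefty1 and Lefty2 were at background, like Nodal. Lefty1 had its lowest, median and highest levels at 5.49, 6.05 and 6.66 in epiblast-like cells and at 4.97, 5.94 and 7.12 in primitive endoderm-like cells. It passed the floor in cell 9, which is epiblast-like, and in cell 17, which is primitive endoderm-like, by at most 0.40. It passed in 10 cells with the floor at the 90th percentile and in 0 with the floor at the 99th. Lefty2 ran from 3.29 to 4.63 in epiblast-like cells and from 3.29 to 6.73 in primitive endoderm-like cells, with the highest value in cell 4, still 0.29 below the floor of that array. Each gene is read by a single probe set here.

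Between the clusters, 3 of the 7 genes detected in at least 3 cells differed by at least 1 log2 unit (2-fold), Inhbb with the higher mean in epiblast-like cells and Acvr1b and Acvr2b in primitive endoderm-like cells. Over all 10245 genes 18.6% did so, 1126 with the higher mean in epiblast-like cells and 781 in the other cluster. With values raised to the floor 0 of the 7 did, against 6.97% of all genes. The clusters did not overlap for 0 of the 7 genes, against 0.254% of all genes. The median difference of the 7 was -0.26, and that of all genes 0.04. Gdf3 was the only one of the 7 whose difference exceeded the SD of both clusters, at 0.98 (0.49 without cells 4, 8, 17 and 20).

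**Figure D3:**
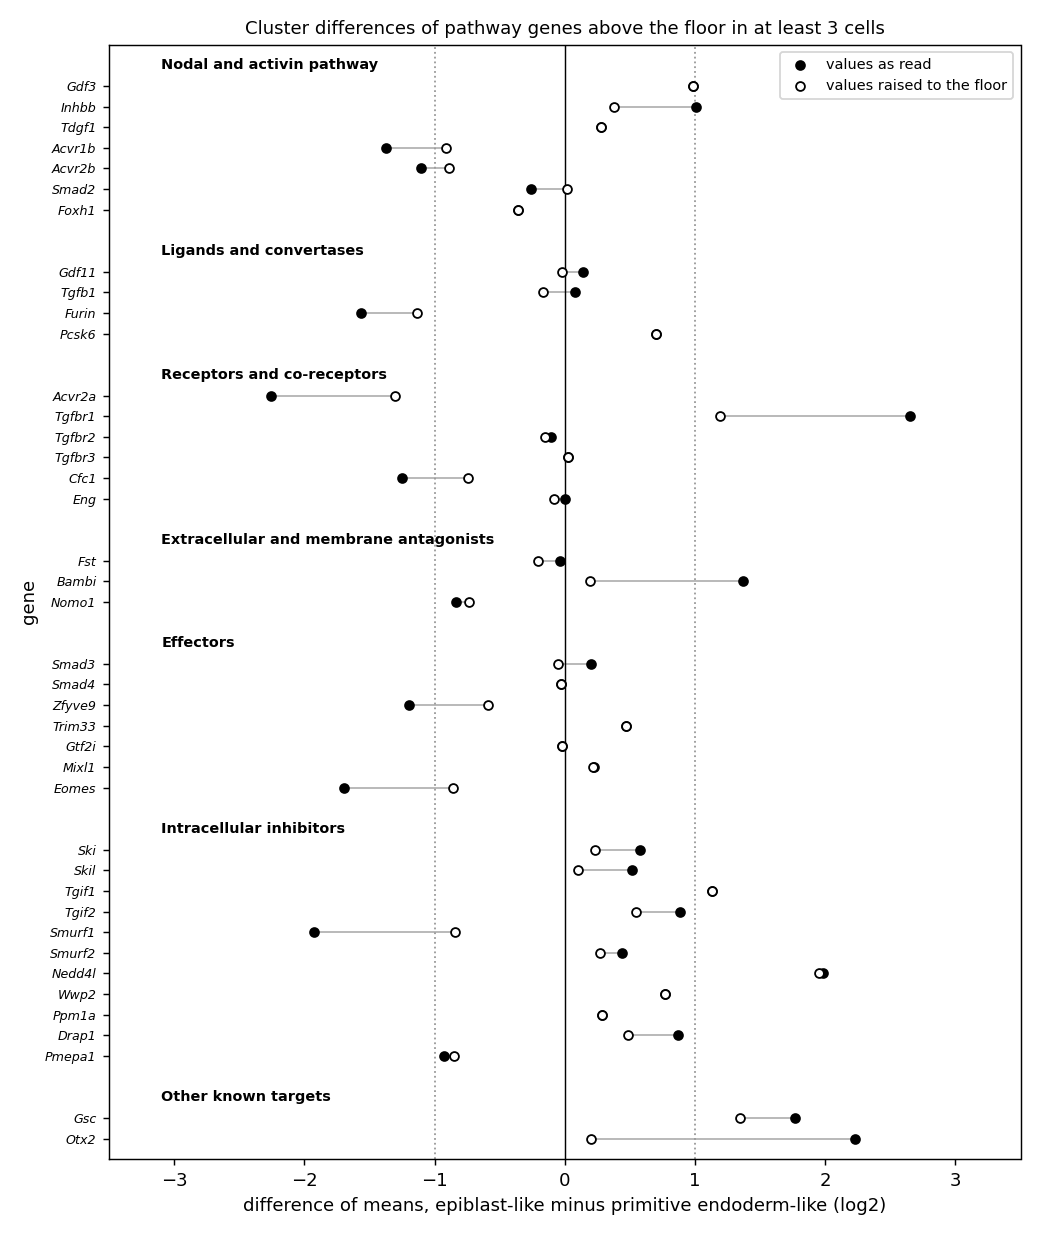
Difference of means between clusters (epiblast-like minus primitive endoderm-like, log2) for the pathway genes detected in at least 3 cells, grouped by role. Filled circles use values as read, open circles values raised to the floor, and dotted lines mark a difference of 1. Nedd4l, Tgif1, Tgfbr1 and Gsc lie beyond 1 on the epiblast-like side by both, and Acvr2a and Furin on the primitive endoderm-like side.

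The wider pathway was read through 53 further genes, 49 of which had a probe set of their own, and 33 of which were detected in at least 3 cells. Over all 10245 genes 18.6% differed by at least 1 as read, 1126 with the higher mean in epiblast-like cells and 781 in the other cluster. By values as read 6 of the 33 had a mean higher by at least 1 in epiblast-like cells. In primitive endoderm-like cells 6 did, 12 in all, and 21 differed by less. Those past 1 as read only were Bambi and Otx2 on the epiblast-like side and Smurf1, Eomes, Cfc1 and Zfyve9 on the other. By values raised to the floor the counts were 4 and 2 (3.54% and 3.43% of all genes). The median difference was 0.20 as read. Of the 49, 11 were detected in 0 cells, against 34.7% of all named genes, among them the activin and inhibin subunit genes Inha, Inhba and Inhbe, the receptor gene Acvr1c and Smad7, an inhibitory Smad that the pathway induces.

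Of the genes for ligand processing, Furin, a convertase that cleaves Nodal and other TGF-beta family precursors, was detected in 6 epiblast-like cells and in 9 of the primitive endoderm-like ones. It read 6.78 ± 1.64 in epiblast-like cells and 8.34 ± 1.44 in primitive endoderm-like cells, a difference of -1.56 that was within the SD of the epiblast-like cells, or -1.13 with values raised to the floor. Pcsk6 (PACE4), another such convertase, was detected in 20 cells, with 9.92 ± 0.46 in epiblast-like cells and 9.22 ± 0.93 in primitive endoderm-like cells (SD, n = 10 each here and below). Its difference of 0.70 was under 1 and within the larger SD.

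Tgfbr1, the type I receptor for TGF-beta (ALK5), was detected in 10 of 10 epiblast-like cells and in 5 primitive endoderm-like cells (3, 8, 11, 17 and 20). It read 9.08 ± 0.72 in epiblast-like cells and 6.43 ± 2.84 in primitive endoderm-like cells, a difference of 2.65 that lay within the spread of the primitive endoderm-like cells, and of 1.19 with values raised to the floor.

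Of 12 intracellular inhibitors, 11 were detected in at least 3 cells. Of these, 2 had a mean higher by at least 1 in epiblast-like cells and 1 in primitive endoderm-like cells, Smurf1, by -1.93 as read and -0.84 with values raised to the floor (18.6% of all genes differed by at least 1 in either direction). Nedd4l, a ubiquitin ligase that acts on activated Smad2 and Smad3, had lowest, median and highest levels of 10.41, 11.55 and 11.89 in epiblast-like cells and 6.68, 9.47 and 10.90 in primitive endoderm-like cells. In 8 epiblast-like cells it lay above every primitive endoderm-like cell, and its difference of 1.98 exceeded the SDs of 0.47 and 1.40. Tgif1, a homeodomain co-repressor of Smad complexes, read 10.46 ± 0.44 in epiblast-like cells and 9.33 ± 1.12 in primitive endoderm-like cells and differed by 1.13. Ppm1a, a phosphatase of Smad2 and Smad3, was detected in 20 cells and differed by 0.28.

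Of the extracellular and membrane antagonists, Nomo1, a membrane protein that restrains Nodal signalling, differed by -0.83 and Bambi, a decoy receptor, by 1.37 as read and 0.20 with values raised to the floor. Among the effectors, Smad4, the common partner of the receptor Smads, read 10.45 ± 0.85 in epiblast-like cells and 10.48 ± 0.44 in primitive endoderm-like cells, and Gtf2i read 12.22 ± 0.16 in epiblast-like cells and 12.24 ± 0.10 in primitive endoderm-like cells. Among 6 further target genes with a probe set, 2 were detected in at least 3 cells. Gsc, a homeobox gene known as a Nodal target at gastrulation, was detected in 9 epiblast-like cells and in 6 of the primitive endoderm-like ones, with 9.07 ± 1.29 in epiblast-like cells and 7.30 ± 1.79 in primitive endoderm-like cells, a difference of 1.77 that was within the larger SD. Bhlhe40 was detected in 0 cells.

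Of the 7 pathway genes detected in at least 3 cells, Gdf3 followed the lineage scores most closely. Over the 20 cells its level had r = 0.59 with the epiblast score, the mean of 9 centred markers (rho = 0.72), and r = -0.66 with the primitive endoderm score (rho = -0.63). Within clusters the relation to the epiblast score was r = 0.52 over the 10 epiblast-like cells and -0.20 over the 10 of the other cluster. For the primitive endoderm score the values were -0.21 and -0.10 in the same order. Tdgf1 had r = 0.51 with the epiblast score (rho = 0.42), -0.20 within epiblast-like cells and 0.56 within primitive endoderm-like cells. Acvr2b had r = -0.52 with that score (rho = -0.48), -0.12 within epiblast-like cells and -0.55 within primitive endoderm-like cells. These values describe cells that share arrays, normalization and the split into clusters, and they carry no test. Among the 7 genes detected in at least 5 cells, the 21 pairs had r between -0.48 (Gdf3 with Acvr2b) and 0.45 (Acvr1b with Foxh1). For Acvr1b with Smad2, r was -0.28 within the 10 epiblast-like cells and 0.68 within the 10 primitive endoderm-like cells, and for Inhbb with Acvr2b it was 0.09 in epiblast-like cells and -0.61 in primitive endoderm-like cells. The values of 0.68 and -0.61 were the highest and lowest within a cluster over the 21 pairs, so they are picked extremes. The other Acvr1b probe set did not follow the one used here. Across the processing alternatives r reached 0.57 for Gdf3 with Inhbb and -0.57 for Tdgf1 with Acvr1b.

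**Figure D4:**
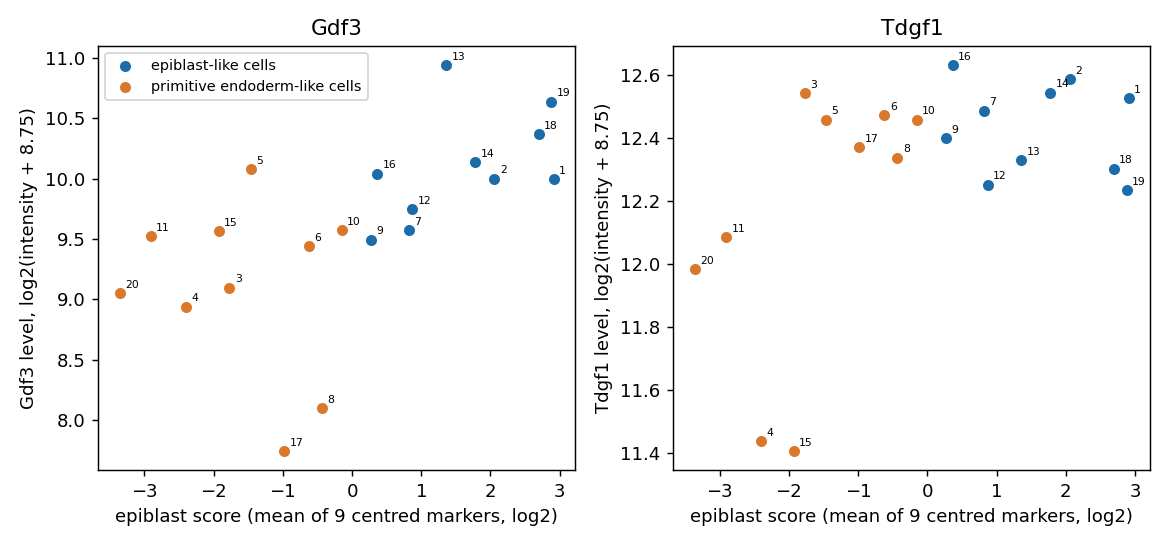
Level of Gdf3 (left) and Tdgf1 (right), log2(intensity + 8.75), against the epiblast score of each cell, with cell numbers beside the points. Gdf3 is lowest in cells 17 and 8, and Tdgf1 is even but for cells 4 and 15 at 11.44 and 11.41. Each panel has its own vertical scale.

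For the 4 pathway genes that varied most, the genes with the most similar pattern over the 20 cells were searched among 9350 genes detected in at least 5 cells. Inhbb was most like Ift140 (r = 0.73), Mybbp1a (0.71) and Snrpg (0.70), and least like Msh3 (-0.72). Acvr1b was most like Faap24 (0.75), Fgfrl1 (0.70) and Mest (0.67), and least like Sdhaf1 (-0.73). Acvr2b was most like Zfp934 (0.75), Zfp358 (0.75) and Zmat3 (0.74), and least like Slc18b1 (-0.74). Smad2 was most like Nckap1 (0.79), Baz1a (0.77) and Smndc1 (0.75), and least like Wdcp (-0.64), and for Smad2 the rank correlations were lower (rho of 0.44, 0.52 and 0.30 for the first 3). These are the extremes of a search over many genes in 20 cells.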

How the data were processed

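Each of 20 mouse inner cell mass cells was measured on 1 Affymetrix array. Per the labels' protocols, the cell lysate went into cDNA synthesis and PCR amplification without purification, and cRNA labelled with biotin was made with Affymetrix's one-cycle reagents. The authors deposited 1 linear intensity per probe set, at most 26616, and 10.1% to 13.4% of an array held the value 1. How probe sets were summarized, corrected and normalized is not given in the sources used here.

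Control probe sets (64) were left out. By GEO's platform annotation, 34945 of the others named 1 gene, 932 several and 9160 none, and 34741 matched RefSeq (GRCm38.p6) by Entrez identifier. The files name no build, and the only coordinates given are those of the RefSeq promoters. The 2%-trimmed means of the arrays (181.3 to 219.8) lay more than 5% apart, so arrays were quantile-normalized. The pseudocount of 8.75 is the 25th percentile of the deposited intensity of an array, as a median over the arrays, and differences are on the log2(intensity + pseudocount) scale. The brightest probe set, by mean level in the 20 cells, stands for a gene. Clusters used Ward's method on 500 genes with the largest variance over a spline trend on mean level (chosen over bins after the place of cell 16 was seen), after centring genes and standardising cells (scipy 1.17.1, scikit-learn 1.9.0, patsy 1.0.2, mean silhouette 0.11). The steps were tested on simulated data. Pairs of arrays sharing most values numbered 0.

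The pathway genes, the wider list, the markers and the settings were chosen with earlier results of these data known. Named genes are the 10 pathway genes, wider-list genes differing by at least 1 both as read and raised to the floor, the 2 brightest of each role, the 3 most and 1 least similar genes of each pathway gene with an SD of at least 1, and Pou5f1, Nanog, Fgf4, Gata4, Gata6 and Cdx2 as context. Acvr1c, Smad3, Smad7, Inha, Inhba, Inhbe, Smurf1, Otx2, Eomes, Cfc1, Zfyve9 and the other lineage markers were named after their values were seen. Alternatives covered normalization, pseudocount, floor, probe set choice, the filter, cells left out and the cluster definition. The number of arrays and the signal over the floor limit the precision.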

Additional observations from a re-analysis of the deposited data

How the results depend on the processing

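The count of pathway genes detected in at least 3 cells was 7 as reported and between 7 and 9 under its 8 alternatives. The count with a cluster difference of at least 1 was 3 as reported, and 0 with values raised to the floor and 0 with the mean of all probe sets. The corresponding count in the wider list was 12 as reported and 6 with values raised to the floor, where 2 and not 6 genes were higher in primitive endoderm-like cells. Under the remaining alternatives these counts stayed within 1.5 times the reported ones. For the 10 pathway genes, all 120 alternative values of the cluster differences moved by less than the larger cluster SD, and differences of at least 1 changed direction in none of them. The difference of Inhbb ranged from 0.35 (mean of all probe sets) to 2.06 (pseudocount at the 10th percentile), that of Acvr1b from -2.25 to -0.88 under the same settings, and that of Acvr2b from -1.42 (without cell 19) to -0.63 (mean of all probe sets). Cell 6 joined the epiblast-like cluster under 8 of the 16 other settings. Cell 16 joined the primitive endoderm-like one without cells 4, 8, 17 and 20 and with the variance trend taken from bins. Not all 16 could move a cell. Values raised to the floor and no filter reused the reported clusters, and another setting split the cells by Fgf4 alone. Among settings that clustered the cells anew, only deposited intensities, the mean of all probe sets and leaving out cell 16 kept every cell in place. Bins came first, several numbers of genes were looked at under both, and the spline replaced them after the place of cell 16 was seen. With bins the counts were 3 and 13, and the differences 1.75 for Inhbb, -1.91 for Acvr1b and -1.03 for Acvr2b. Without cell 16 the counts were 3 and 13, and the differences 1.47, -1.74 and -1.12. Leaving out cells 4 and 15 was chosen after seeing the data too. The number of cells in which a gene was detected left the range of 1.5 times the reported one in 6 alternatives (Nodal, Acvr2b, Lefty1 and Lefty2) and stayed within it in 74. Leaving out cells 4 and 15 moved r between Tdgf1 and Acvr1b to 0.10 in place of -0.43. No paired analysis was possible because all cells form a single group. Signal near the floor limits Nodal, Lefty1 and Acvr2b. Lefty2 was within 1 log2 unit of the floor in 1 cell (cell 4) and further below it in the others.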
